A study of Mus musculus with 9 samples.

Results

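The 9 genes described here encode transcription factors associated with the lineage of microglia, the resident macrophages of the brain: Sall1, Sall3, Mef2a, Mef2c, Spi1, Irf8, Runx1, Cebpa and Maf. They were chosen by name, as 9 of the 23238 gene symbols in the count tables, and all 9 passed the filter on low counts that left 12292 genes. Microglia were sorted from the brain on day 1 as CD45+CD11b+P2ry12+ cells, and the 3′ ends of their transcripts were counted in 9 libraries. Each library came from a pool of 3 wild-type female C57BL/6N mice aged 12 weeks, with 3 libraries in each of 3 groups. Normal mice were untreated. NMO mice received NMO-IgG, antibody of patients with neuromyelitis optica against the astrocyte water channel aquaporin-4, together with human complement by injection into the striatum of 1 side. NMO+CL mice received the same injection and, 6 h before it, clodronate liposomes by intraperitoneal injection, which deplete circulating monocytes and macrophages. Mice given control IgG or empty liposomes were not analysed here. The effects of surgery, antibody and complement therefore cannot be told apart in NMO against Normal, nor those of clodronate and the liposomes that carry it in NMO+CL against NMO.

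Microglia arise from yolk sac precursors, and the ETS factor encoded by Spi1 (PU.1), with Irf8 and Runx1, serves that myeloid program. PU.1 binds closed chromatin and is joined there by partners such as IRF8, C/EBP, RUNX and MEF2 factors, while the zinc finger factor SALL1 keeps the microglial program apart from that of other macrophages and depends on TGF-β signals of the brain. MEF2C restrains microglial responses to interferon and other stimuli, and c-MAF, encoded by Maf, serves macrophage differentiation.

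Total counts ran from 5788234 to 7837219 per library, of which the ribosomal RNA entry Rn45s took 16.0% to 31.0%. Levels are given as CPM, counts per 1000000 after scaling of library sizes by TMM (trimmed mean of M values), with the SD between 3 libraries, and they are compared between groups and not between genes. Every group comparison is a two-sided edgeR quasi-likelihood test fitted to all genes, with Benjamini-Hochberg adjustment over the 12292 genes, and a gene is called at an adjusted p under 0.05. The 3 comparisons share their groups and are not independent of each other. The sorted cells carried Tmem119, a transcript that marks microglia, at 2115 to 3444 CPM in all 9 libraries. Other homeostatic microglia genes were less even, and 12 of the 16 tested fell in NMO+CL against Normal. Normal replicate 1 stood apart, with 225 CPM of summed neuron markers beside 6.33 to 39.5 CPM in the other 8 libraries, with 599 CPM of summed neutrophil markers beside 100.5 and 129 CPM in the other Normal libraries, and with the highest share of Rn45s. In bulk libraries, fewer cells of a type and less RNA per cell cannot be told apart.

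Of the 9 factors, 4 fell and 1 rose in NMO+CL against Normal. Cebpa fell 2.56-fold, Maf 2.18-fold, Sall1 1.88-fold and Mef2a 1.47-fold, whereas Runx1 rose 1.55-fold. In NMO+CL against NMO only Maf was called among the 9, falling 1.70-fold, and in NMO against Normal none of the 9 was called. Spi1, Irf8 and Sall3 were called in none of the 3 comparisons, and Mef2c missed the threshold narrowly in NMO+CL against Normal, with an adjusted p of 0.0550.

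**Figure D1:**
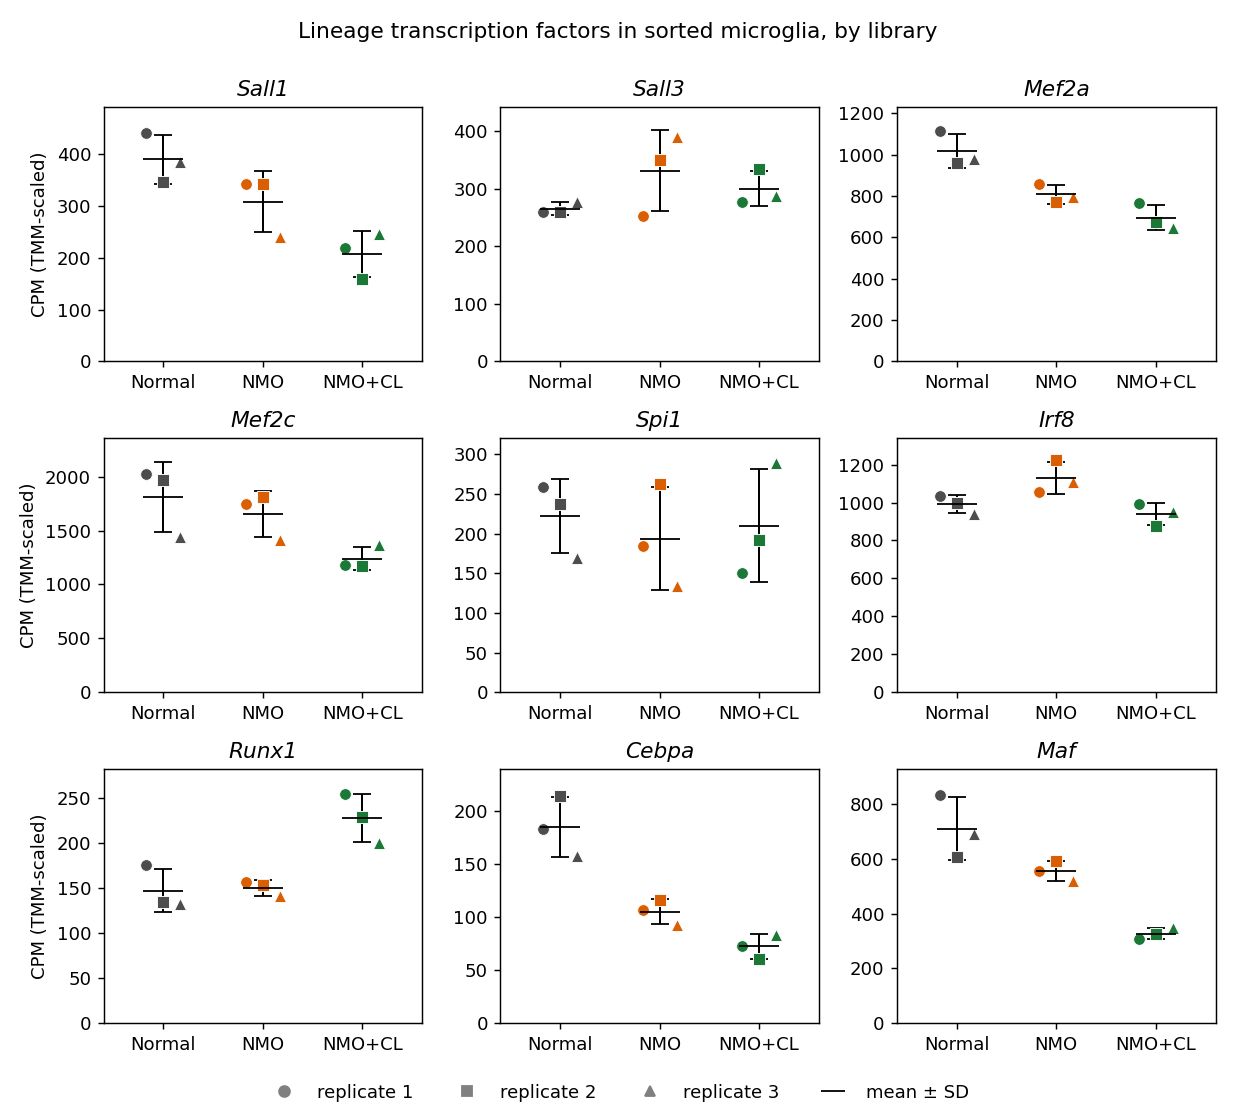
CPM (y axis, from 0) of the 9 factors in each of the 3 Normal, 3 NMO and 3 NMO+CL libraries; symbols mark replicates and black bars the mean ± SD. The NMO+CL libraries lay below all Normal libraries for Sall1, Mef2a, Mef2c, Cebpa and Maf and above them for Runx1, while the groups overlapped for Spi1.

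Across all genes, NMO+CL against Normal had 588 genes higher, 4.78% of those tested, and 545 lower, 4.43%, and the factors' 1 higher and 4 lower of 9 are to be read beside these shares. Well measured genes are called more often: of the 3233 genes with a mean above 50 CPM, which the factors all exceed, 11.1% were called higher and 9.25% lower. NMO+CL against NMO had 65 higher, 0.529%, and 131 lower, 1.07%. NMO against Normal had 58 higher, 0.472%, and 3 lower, 0.0244%. At an unadjusted p under 0.05, NMO against Normal held 2 of the 9 factors, Cebpa and Mef2a, beside 9.51% of all genes tested. NMO+CL against NMO held 5 beside 12.4%, and NMO+CL against Normal held 6 beside 22.3%. In NMO against Normal DESeq2 called 1 of the 9, Cebpa, and limma-voom none. The median log2 fold change of the 9 factors was −0.20 when NMO was compared with Normal, −0.26 when NMO+CL was compared with NMO and −0.54 when it was compared with Normal, where the median of all genes was −0.01 in each.

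**Figure D2:**
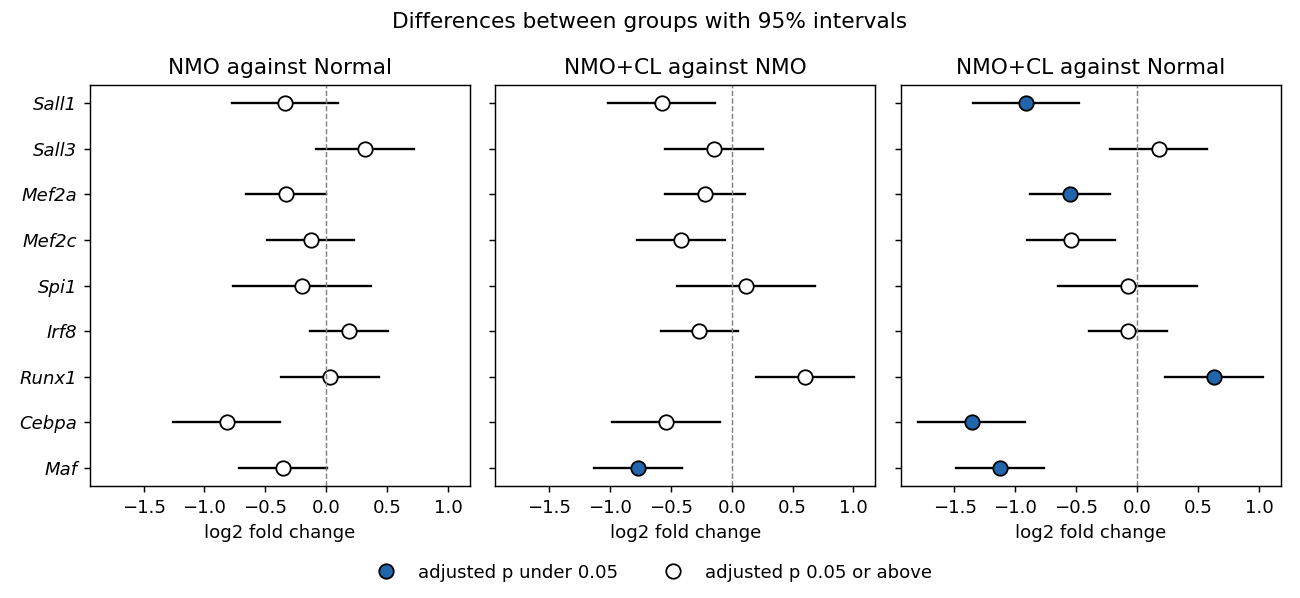
Log2 fold change (x axis) of the 9 factors in each of the 3 comparisons, with 95% intervals from the edgeR fit; filled points have an adjusted p under 0.05. Filled points are Maf in the middle panel and Sall1, Mef2a, Runx1, Cebpa and Maf in the right panel.

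In the GENCODE M21 annotation of GRCm38 (mm10), the build of the deposited counts, the 9 genes are protein-coding. Sall1 is at chr8:89027235-89044162, Maf at chr8:115682942-115707794 and Irf8 at chr8:120736358-120756694. Mef2a is at chr7:67231163-67372858 and Cebpa at chr7:35119293-35121928. Mef2c is at chr13:83504034-83667080, Spi1 at chr2:91082390-91115756 and Runx1 at chr16:92601466-92826149. Sall1, Sall3, Mef2a, Runx1 and Maf are on the minus strand. The last 500 bases of their coding transcripts, where reads of a 3′ library fall, matched no other gene over 50 bases at 90% identity. Only the end of Mef2a shares bases with another gene, 185 of them with Lysmd4 on the opposite strand. Lysmd4 was counted at 0.717 to 7.67 CPM over the 9 libraries.

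The set of RefSeq start sites used here had entries for 6 of the 9 genes: Sall1, Mef2a, Mef2c, Irf8, Runx1 and Cebpa. The 250 bases before the start are shown for the called genes among them, Sall1, Mef2a and Cebpa, which were lower in NMO+CL, and Runx1, which was higher. Sall1 has 3 listed starts and the one at the 5′ end of the gene is shown; for Runx1 both are shown, the distal (first) and the proximal (second), which the 3′ counts do not distinguish. They read 5′ to 3′ on the gene's strand, and capitals mark matches on either strand to the ETS core (AGGAAG, the letters PU.1 binds), the RUNX core (TGTGGT), the C/EBP site (TTGCNNAA), the MAF core (TGCTGA), the MEF2 box, the IRF repeat (GAAANNGAAA), the TATA box (TATAAA) and the CCAAT box (CCAAT).
Sall1, chr8:89044163-89044412, GRCm38.p6, minus strand: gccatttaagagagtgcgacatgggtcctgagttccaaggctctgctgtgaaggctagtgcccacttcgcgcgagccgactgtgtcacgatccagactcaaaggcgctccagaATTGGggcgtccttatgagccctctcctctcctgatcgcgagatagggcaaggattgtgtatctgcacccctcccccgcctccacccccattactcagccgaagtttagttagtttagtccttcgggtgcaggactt
Mef2a, chr7:67372859-67373108, GRCm38.p6, minus strand: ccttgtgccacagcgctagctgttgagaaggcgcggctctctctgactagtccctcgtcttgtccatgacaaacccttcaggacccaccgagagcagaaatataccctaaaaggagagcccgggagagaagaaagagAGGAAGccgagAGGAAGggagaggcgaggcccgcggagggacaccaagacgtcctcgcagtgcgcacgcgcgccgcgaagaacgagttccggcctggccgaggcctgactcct
Cebpa, chr7:35119043-35119292, GRCm38.p6, plus strand: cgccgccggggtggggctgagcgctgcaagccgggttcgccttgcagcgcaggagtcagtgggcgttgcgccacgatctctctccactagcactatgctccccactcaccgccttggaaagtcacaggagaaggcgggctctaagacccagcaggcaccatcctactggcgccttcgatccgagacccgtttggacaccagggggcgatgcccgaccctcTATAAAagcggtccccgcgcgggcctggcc
Runx1 distal, chr16:92826075-92826324, GRCm38.p6, minus strand: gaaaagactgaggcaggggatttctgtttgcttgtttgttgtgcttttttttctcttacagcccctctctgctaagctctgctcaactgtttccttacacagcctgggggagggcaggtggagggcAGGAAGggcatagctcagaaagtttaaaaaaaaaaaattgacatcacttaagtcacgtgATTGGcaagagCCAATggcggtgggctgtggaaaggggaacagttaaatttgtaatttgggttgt
Runx1 proximal, chr16:92697330-92697579, GRCm38.p6, minus strand: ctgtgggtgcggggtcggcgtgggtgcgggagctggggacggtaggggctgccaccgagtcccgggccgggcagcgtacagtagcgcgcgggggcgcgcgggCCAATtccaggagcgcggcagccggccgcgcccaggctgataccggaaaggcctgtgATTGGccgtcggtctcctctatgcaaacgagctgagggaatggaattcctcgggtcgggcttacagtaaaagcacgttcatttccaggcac
Among the 5 windows shown, that of Mef2a and the distal window of Runx1 held an ETS core, as did the window of the third listed start of Sall1, not shown, at 181 bases before that start. Mef2a had 2, whose first bases lay 113 and 102 bases before the start, and the distal window of Runx1 had 1, at 124 bases. Of all 32851 RefSeq windows of this length, 29.5% held an ETS core. The window of Cebpa held a TATA box 30 bases before the start, a motif of 12.4% of all windows. CCAAT boxes stood in the Sall1 window and in both Runx1 windows, and in 33.8% of all windows. No match to the RUNX core, C/EBP, MAF, MEF2 or IRF motifs was found in the 5 windows, and 14.0%, 9.56%, 16.1%, 0.508% and 2.98% of all windows held them. A match is a description of letters and not a bound site.

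SALL1 and SALL3 are zinc finger repressors of one family, and Sall1 is the member that defines microglia among macrophages. Sall1 was at 441, 346 and 385 CPM in Normal replicates 1 to 3, at 343, 342 and 241 CPM in NMO and at 218, 158 and 246 CPM in NMO+CL. With TMM scaling every NMO library was below every Normal library, but narrowly. NMO replicate 1 was at 343 CPM and Normal replicate 2 at 346 CPM. Every NMO+CL library was below every Normal library, while NMO and NMO+CL overlapped through NMO replicate 3. Sall1 fell in NMO+CL against Normal, from 391 ± 47.4 to 208 ± 44.8 CPM (SD, n = 3), with a log2 fold change of −0.91 (SE 0.21) and an edgeR adjusted p of 0.00975. This call was lost without Normal replicate 1 (adjusted p = 0.0518) and without NMO+CL replicate 2 (adjusted p = 0.0690), by the same edgeR test. The log2 fold change was −0.34 (adjusted p = 0.679) in NMO against Normal and −0.57 (adjusted p = 0.220) in NMO+CL against NMO by edgeR, neither of them called.

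Sall3, unlike Sall1, was not called in NMO+CL against Normal. It was at 259, 260 and 278 CPM in Normal, at 254, 351 and 390 CPM in NMO and at 278, 335 and 288 CPM in NMO+CL. The NMO libraries overlapped both other groups, and NMO+CL replicate 1 lay within the range of the Normal libraries. No comparison called Sall3, with log2 fold changes of 0.32, −0.14 and 0.18 in the order above and a 95% interval of −0.23 to 0.58 for NMO+CL against Normal. Counts of Sall1 were 1.33 to 1.70 times those of Sall3 in each Normal library, 0.618 to 1.35 times in NMO and 0.473 to 0.855 times in NMO+CL. Sall1 thus had the more counts in every Normal library and the fewer in every NMO+CL library. This ratio is taken within a library, so that scaling does not touch it, and like the ratios below it was chosen after the values were seen and was not tested.

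MEF2A and MEF2C are MADS box factors that bind the same AT-rich site. Mef2a was at 1115, 962 and 980 CPM in Normal, at 861, 772 and 795 CPM in NMO and at 765, 673 and 647 CPM in NMO+CL. The 3 groups did not overlap, with NMO between the others, although NMO replicate 2 and NMO+CL replicate 1 were close to each other. Mef2a fell from 1019 ± 83.5 in Normal to 695 ± 61.7 CPM in NMO+CL (SD, n = 3), a log2 fold change of −0.55 (SE 0.16) with an edgeR adjusted p of 0.0345. The call was made in 9 of 17 alternative analyses and was lost in 6 of 9 that left out 1 library. The edgeR adjusted p was 0.141, 0.0771 and 0.0772 without Normal replicates 1, 2 and 3, 0.0593 without NMO replicate 1, and 0.136 and 0.0858 without NMO+CL replicates 2 and 3.

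Mef2c was at 2027, 1966 and 1436 CPM in Normal, at 1743, 1811 and 1411 CPM in NMO and at 1179, 1176 and 1367 CPM in NMO+CL. All NMO+CL libraries were below all libraries of the other groups, the nearest gap being that between NMO+CL replicate 3 and NMO replicate 3, and Normal and NMO overlapped. Its difference in NMO+CL against Normal, 1241 ± 109.6 against 1810 ± 325 CPM (SD, n = 3), was about as large as that of Mef2a, at −0.54 on the log2 scale, and was not called, with an edgeR adjusted p of 0.0550. The same difference was called in 6 of 17 alternatives, which were DESeq2 (adjusted p = 0.0128), limma-voom (adjusted p = 0.0267) and the edgeR fit without Normal replicate 3 (adjusted p = 0.0308), without NMO replicates 2 or 3 (0.0493 and 0.0461) or without NMO+CL replicate 3 (0.0474). The counts of Mef2a relative to Mef2c overlapped between all groups, from 0.426 in NMO replicate 2 to 0.682 in Normal replicate 3.

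PU.1, the product of Spi1, is the ETS factor that opens myeloid enhancers, and IRF8 binds many of them with it. Spi1 was at 259, 238 and 169 CPM in Normal, at 184, 263 and 134 CPM in NMO and at 150, 192 and 289 CPM in NMO+CL. The 3 groups covered nearly the same range, and the highest and the lowest of the 9 libraries were NMO+CL replicate 3 and NMO replicate 3. Spi1 had the widest spread of the 9 factors within groups, with coefficients of variation of 21.0%, 33.5% and 33.8% in the same order of groups, where counting alone would give 3.45% or less. Its difference in NMO+CL against Normal was −0.08 on the log2 scale with a 95% interval of −0.65 to 0.49 (edgeR adjusted p = 0.927). That interval reaches well to both sides of 0, and the direction changed with the library left out: the log2 fold change was 0.05 without Normal replicate 1 and 0.11 without NMO+CL replicate 1.

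Irf8 was among the steadiest of the 9, with a coefficient of variation of 4.77% to 7.57%. It was at 1032, 999.9 and 939 CPM in Normal, at 1056, 1223 and 1109 CPM in NMO and at 994, 876 and 949 CPM in NMO+CL. All NMO libraries lay above all libraries of the other groups, which overlapped each other. The difference was 0.19 on the log2 scale in NMO against Normal (95% interval −0.13 to 0.51) and −0.26 in NMO+CL against NMO (−0.58 to 0.05), and edgeR called neither, with adjusted p of 0.802 and 0.510. For NMO+CL against Normal the 95% interval, −0.40 to 0.24, was narrower than that of Spi1.

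RUNX1 binds DNA with CBFβ, the product of Cbfb, and is known in microglia for their development and the change between the amoeboid and the ramified state. Runx1 was the one factor of the 9 that rose. It was at 175, 134 and 132 CPM in Normal, at 157, 153 and 140 CPM in NMO and at 254, 229 and 200 CPM in NMO+CL. Normal and NMO covered the same range, and each NMO+CL library was above all 6 of them. Runx1 rose from 147 ± 24.2 in Normal to 228 ± 26.8 CPM in NMO+CL (SD, n = 3), by 0.63 on the log2 scale (SE 0.19), with an edgeR adjusted p of 0.0480. Against NMO the log2 fold change was 0.60, close in size, but the edgeR adjusted p was 0.151; DESeq2 called it (adjusted p = 0.0251). The call against Normal was made in 9 of 17 alternatives and lost in 6 of 9 that left out 1 library. The edgeR adjusted p was 0.182 and 0.181 without Normal replicates 2 and 3, 0.0701 and 0.0513 without NMO replicates 1 and 2, and 0.140 and 0.131 without NMO+CL replicates 1 and 2.

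Cbfb was not called in any comparison. Its mean was 43.0 ± 3.39 CPM in Normal, 71.9 ± 16.9 CPM in NMO and 38.2 ± 23.0 CPM in NMO+CL (SD, n = 3). The counts of Runx1 were 2.83 to 4.36 times those of Cbfb in Normal, 1.68 to 2.40 times in NMO and 4.28 to 14.6 times in NMO+CL. The NMO libraries were the lowest in this ratio, and the highest value came from NMO+CL replicate 3 alone.

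C/EBPα, the product of Cebpa, is a leucine zipper factor that sets the myeloid fate beside PU.1. Cebpa showed the largest fold difference of the 9 factors in NMO+CL against Normal. It was at 183, 214 and 158 CPM in Normal, at 107, 116 and 92.4 CPM in NMO and at 72.8, 60.3 and 83.1 CPM in NMO+CL. The 3 groups did not overlap, and NMO lay between the others. From Normal to NMO+CL, Cebpa fell from 185 ± 28.1 to 72.1 ± 11.4 CPM (SD, n = 3), a log2 fold change of −1.36 (SE 0.21) with an edgeR adjusted p of 0.00057, and all 17 alternatives called it. In NMO against Normal the log2 fold change was −0.82 (SE 0.21), the largest of the 9 there, and edgeR gave an adjusted p of 0.104. DESeq2 called that difference (adjusted p = 0.00848), as did edgeR on all genes with a count (adjusted p = 0.0448). With 373 to 520 counts in the NMO+CL libraries, Cebpa was the most thinly counted of the 9, for which counting error was at most 5.18%, below the spread of 15.8% between those libraries.

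Cebpb, a relative that rises with inflammatory stimuli in macrophages, was not called: it was at 26.6 ± 6.45 CPM in Normal, 43.7 ± 31.3 CPM in NMO and 48.3 ± 16.5 CPM in NMO+CL (SD, n = 3). The counts of Cebpa were 5.59 to 11.0 times those of Cebpb in Normal, 1.53 to 7.05 times in NMO and 1.24 to 1.92 times in NMO+CL, so that Normal and NMO+CL did not overlap in this ratio. Another relative, Cebpg, fell in NMO+CL against Normal, from 127 ± 16.9 to 68.2 ± 8.89 CPM (SD, n = 3; edgeR adjusted p = 0.0131), a call lost without Normal replicate 3.

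**Figure D3:**
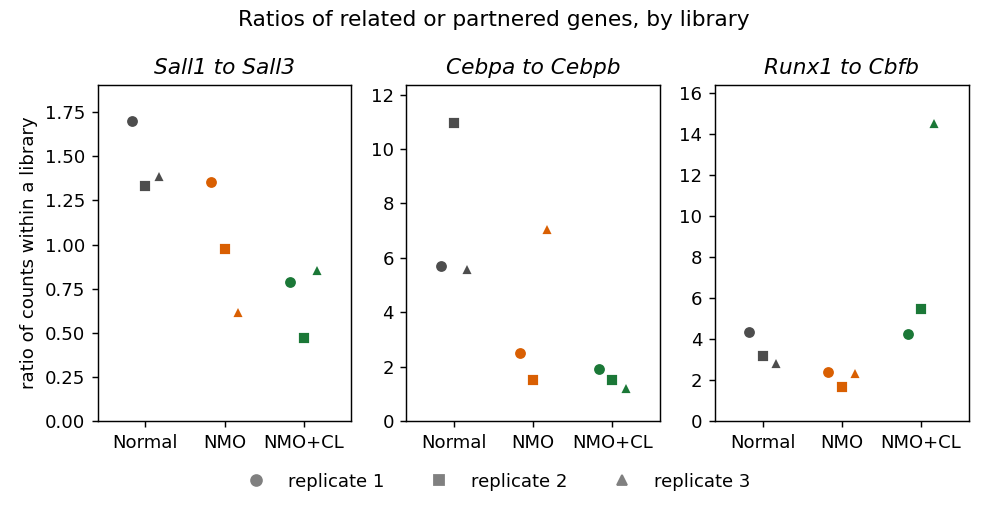
Ratio of the counts of 2 genes within a library (y axis, from 0) in the 3 libraries of each group; symbols mark replicates. Sall1 to Sall3 lay below 1 in all 3 NMO+CL libraries, and Runx1 to Cbfb was highest in NMO+CL replicate 3, at 14.6.

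Maf was the one factor called both against Normal and against NMO. It was at 834, 607 and 690 CPM in Normal, at 556, 592 and 518 CPM in NMO and at 306, 325 and 348 CPM in NMO+CL. The 3 groups did not overlap, although Normal replicate 2 was only slightly above NMO replicate 2, and the NMO+CL libraries stood well below the other 6. Maf fell from 555 ± 36.8 in NMO to 326 ± 20.7 CPM in NMO+CL (SD, n = 3), with a log2 fold change of −0.77 (SE 0.17) and an edgeR adjusted p of 0.0295. Against the Normal mean of 711 ± 115 CPM (SD, n = 3) the log2 fold change was −1.12 (SE 0.17) and the edgeR adjusted p 0.00052. All 17 alternatives called the fall against Normal, and 11 called that against NMO. The call against NMO was lost in 5 of the 9 analyses without 1 library, with an edgeR adjusted p of 0.0562 without Normal replicate 3, 0.122 without NMO replicate 1, 0.0839 without NMO replicate 2, 0.0718 without NMO+CL replicate 1 and 0.143 without NMO+CL replicate 2. It was also lost when NMO and NMO+CL were fitted by themselves (adjusted p = 0.0767).

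Looked at by library, the order Normal above NMO above NMO+CL with no overlap held for 3 of the 9 factors, Mef2a, Cebpa and Maf, and the opposite order for none. Among all genes, 1.39% had the first order and 1.63% the second. This count was added after the values were seen. With library totals alone it held for Mef2a and Cebpa, and with DESeq2 size factors or TMM without Rn45s for Cebpa and Maf. In NMO against Normal, 4 of the 9 factors were lower in every NMO library, Sall1, Mef2a, Cebpa and Maf, beside 8.2% of all genes. Irf8 alone was higher, beside 9.21%. The gap was narrow for Sall1, with 343 CPM in NMO and 346 CPM in Normal, and for Maf, with 592 and 607 CPM. This count and those below were taken with TMM scaling alone. In NMO+CL against NMO, Mef2a, Mef2c, Irf8, Cebpa and Maf were lower without overlap, beside 9.22% of all genes, and Runx1 was higher, beside 7.89%. In NMO+CL against Normal, Sall1, Mef2a, Mef2c, Cebpa and Maf were lower without overlap, beside 14.9% of all genes, and Runx1 was higher, beside 13.8%.

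The libraries of a group did not deviate alike for all factors. NMO replicate 3 was the lowest of the NMO libraries for 6 of the 9 factors, Sall1, Mef2c, Spi1, Runx1, Cebpa and Maf, and Normal replicate 1 was the highest Normal library for 7 of the 9. The part that its neuron markers and its share of Rn45s had in its higher values was not tested. Without this library Cebpa and Maf were still called in NMO+CL against Normal, with edgeR log2 fold changes of −1.36 and −0.99 (adjusted p = 0.00312 and 0.00459), and so was Runx1, but Sall1 and Mef2a were not.

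**Figure D4:**
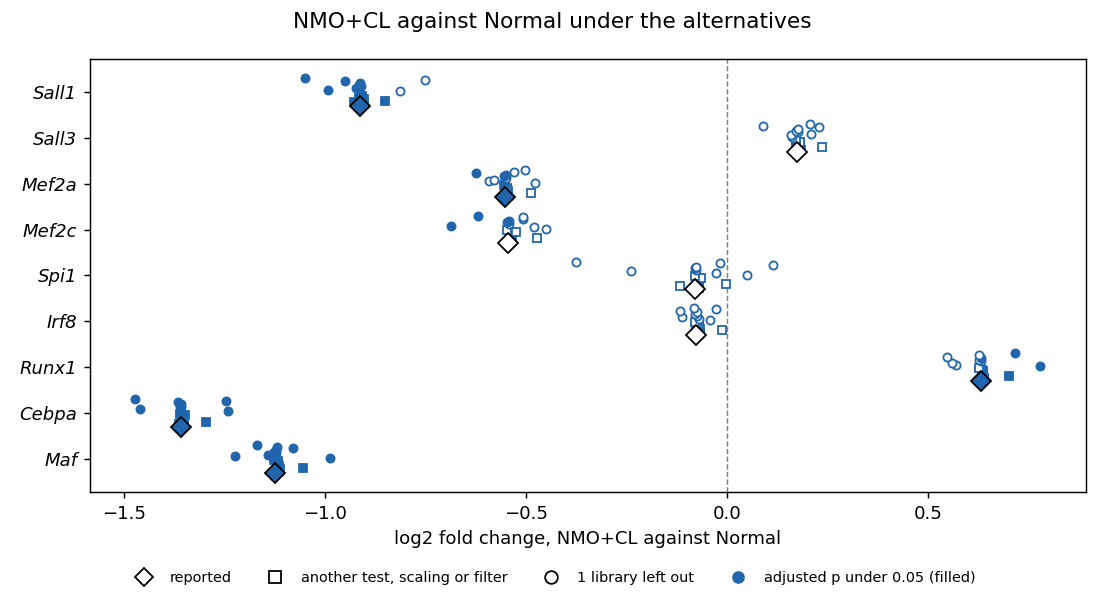
Log2 fold change of each factor in NMO+CL against Normal (x axis) as reported (diamonds) and under 17 alternatives, which were another test, scaling, filter or block (squares) or the loss of 1 library (circles); filled symbols have an adjusted p under 0.05. Cebpa and Maf stayed filled throughout, Mef2a, Mef2c and Runx1 were filled in some alternatives, and Spi1 crossed 0.

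The factors were set beside lists of other genes of microglia and macrophages, whose counts in NMO+CL against Normal are to be read beside the 4.78% of all genes called higher and the 4.43% called lower, and beside 11.1% and 9.25% among genes above 50 CPM. Of 16 homeostatic microglia genes tested, 12 fell and none rose in NMO+CL against Normal, and 7 fell and none rose in NMO+CL against NMO. In NMO+CL against NMO 1.07% of all genes and 2.47% of those above 50 CPM were lower. The count of 7 ran from 4 to 10 under the 17 alternatives. The median log2 fold change of the 16 was −1.02 in NMO+CL against Normal and −0.71 in NMO+CL against NMO. Siglech, a lectin of resting microglia, was the one of the 16 called in NMO against Normal, with a log2 fold change of −0.88 (edgeR adjusted p = 0.0286), a call made in 11 of 17 alternatives and in 4 of 9 without 1 library. P2ry12, the purinergic receptor used as the sort marker, fell by 2.22 on the log2 scale in NMO+CL against NMO (edgeR adjusted p = 1.73e-05) and was at 265 to 448 CPM in NMO+CL, 1555 to 1753 CPM in NMO and 2051 to 2660 CPM in Normal. The summed level of the 16 genes was 45108 to 49968 CPM in Normal, 38278 to 42661 in NMO and 25427 to 33604 in NMO+CL. The 3 ranges did not overlap.

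Of 17 genes tested that are ascribed to PU.1 in myeloid cells, with a median log2 fold change of 0.11, 2 rose and 1 fell in NMO+CL against Normal, counts near the shares of genes above 50 CPM. Those that rose were the scavenger receptor Msr1 and Cybb, the catalytic subunit of the phagocyte oxidase, and the one that fell was Aif1, which encodes the microglial marker Iba1. Msr1 was also the one called in the other comparisons, at 0.383 ± 0.346 CPM in Normal, 86.6 ± 41.3 CPM in NMO and 299 ± 62.4 CPM in NMO+CL (SD, n = 3). Its edgeR adjusted p was 0.0131 in NMO+CL against NMO, a call lost without NMO+CL replicate 2. In NMO against Normal limma-voom did not call it (adjusted p = 0.135). At an unadjusted edgeR p under 0.05, 8 of the 17 passed in NMO+CL against Normal, beside 22.3% of all genes. In NMO+CL against NMO 7 passed, beside 12.4% of all genes. DESeq2 and limma-voom each called 5 of the 17 in NMO+CL against Normal. Spi1 itself was called in none of the comparisons.

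Of 8 tested genes ascribed to Irf8, 4 rose and 2 fell in NMO+CL against Normal, with a median log2 fold change of 1.34. Those that rose were Ctsc (cathepsin C, 272 ± 30.3 to 873 ± 185 CPM), Cybb, Klf4 and the survival gene Bcl2, and those that fell were Aif1 and Cst3 (cystatin C, 23322 ± 1126 to 9271 ± 2526 CPM; SD, n = 3). In NMO+CL against NMO, Klf4 rose and Cst3 fell, and in NMO against Normal Ctsc rose (edgeR adjusted p = 0.0351), called in 11 of 17 alternatives and in 4 of 9 without 1 library. Aif1 and Cybb stand in both lists. Aif1 was called in NMO+CL against Normal in 13 and Bcl2 in 14 of 17 alternatives, both being lost without Normal replicate 2 or NMO+CL replicate 2, Bcl2 also without Normal replicate 1, and Aif1 also without Normal replicate 3 or NMO+CL replicate 1.

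Of 20 relatives of the 9 factors tested, edgeR called Cebpg alone, lower in NMO+CL against Normal, where 4.43% of all genes were lower and 4.78% higher, and none in the other comparisons. These counts do not set the relatives apart from all genes. Their median log2 fold change in NMO+CL against Normal was −0.21. In NMO against Normal 3 of the 20 were under an unadjusted p of 0.05, beside 9.51% of all genes, and in NMO+CL against NMO 4, beside 12.4%. Of the 20, DESeq2 called 0 and 1 in these comparisons and limma-voom none. Irf5, an activator of inflammatory genes in macrophages, was at 176 ± 28.3 CPM in Normal and 111 ± 49.2 in NMO+CL (SD, n = 3; edgeR adjusted p = 0.139). Irf7 and Mef2d were near the limit of counting, at means of at most 4.16 and 5.75 CPM in any group.

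Of 37 other macrophage regulators tested, 4 rose and 5 fell in NMO+CL against Normal, again near the shares of genes above 50 CPM. At an unadjusted edgeR p under 0.05, 15 of the 37 passed there, beside 22.3% of all genes. Lmo2, an adaptor of blood-forming transcription complexes, fell from 183 ± 10.5 to 45.2 ± 5.21 CPM (edgeR adjusted p = 1.30e-05), and Zfhx3 from 1112 ± 54.1 to 561 ± 14.1 CPM (adjusted p = 0.000916; SD, n = 3). Rbpj, the DNA-binding factor of the Notch pathway, rose from 48.9 ± 1.03 to 148 ± 11.2 CPM (edgeR adjusted p = 8.98e-05; SD, n = 3), and was the one of the 37 called in NMO against Normal, at 94.3 ± 6.67 CPM (adjusted p = 0.0411). The call of Rbpj against Normal in NMO was made in 7 of 17 alternatives and in 2 of 9 without 1 library, not by limma-voom (adjusted p = 0.0802), and was lost without any one of the Normal or NMO libraries; that in NMO+CL was made in all 17. Id2, an inhibitor of helix-loop-helix factors, rose from 236 ± 10.8 in Normal to 614 ± 113 CPM in NMO+CL (edgeR adjusted p = 0.000293; SD, n = 3). Against NMO, Id2 and Klf4 rose and Lmo2 fell, the first pair called in all alternatives but that without NMO+CL replicate 2. Smad3, which carries the TGF-β signal, was at 142 ± 7.70 CPM in Normal, 148 ± 34.1 CPM in NMO and 98.9 ± 24.5 CPM in NMO+CL (SD, n = 3) and was not called, with an edgeR adjusted p of 0.178 in NMO+CL against Normal.

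Of 24 inducible transcription factors, such as the AP-1, NF-κB and STAT families, Stat3 and Bcl3 rose in NMO+CL against Normal. Such a count does not set the 24 apart, since 4.78% of all genes and 11.1% of those above 50 CPM were higher. The median log2 fold change of the 24 there was −0.26. None was called by edgeR in the other comparisons, where 2 and 3 were under an unadjusted p of 0.05 and DESeq2 called 1 in NMO against Normal. Stat3 rose from 353 ± 106 to 716 ± 60.5 CPM (edgeR adjusted p = 0.0150; SD, n = 3), a call lost without Normal replicates 1 or 2 or NMO+CL replicate 2. None of the 13 subunits tested of NuRD, the repressor complex that SALL proteins recruit, was called by edgeR, DESeq2 or limma-voom in any comparison, and 1 was under an unadjusted p of 0.05 in each. Of 19 partners and regulators of the Mef2, Runx and Cebp factors, Trib1, which directs the breakdown of C/EBPα, rose from 151 ± 10.9 to 238 ± 34.7 CPM in NMO+CL against Normal (edgeR adjusted p = 0.0378; SD, n = 3). Ldb1, a partner of LMO2, and Tle3, a corepressor, fell in the same comparison. The 1 higher and 2 lower of 19 do not set this list apart from genes above 50 CPM, with 11.1% higher and 9.25% lower. Trib1 and Tle3 were each called in 11 of 17 alternatives and Ldb1 in all 17. Against NMO, Ldb1 fell as well (edgeR adjusted p = 0.0314), but this call was made in 7 of 17 alternatives and in 1 of 9 without 1 library, that without NMO replicate 3, and not by limma-voom (adjusted p = 0.0806).

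The genes whose pattern over the 9 libraries was nearest to a called factor, by root mean square difference of centred log2 CPM among 6217 genes, were Mapk9, Efnb1 and Ccndbp1 for Maf and Sparc, Scmh1 and Eef2k for Cebpa. For Sall1 they included Wls and Zmiz1. They were Nr3c1, Ptpra and Slco2b1 for Mef2a and Rps15a-ps6, Tmem167 and Plod1 for Runx1. The nearest differed by 0.10 for Maf, 0.16 for Cebpa, 0.13 for Sall1, 0.10 for Mef2a and 0.11 for Runx1 on the log2 scale, where the factors' own SDs over the libraries were 0.48, 0.58, 0.44, 0.24 and 0.32. Sparc is one of the 16 homeostatic genes above.

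Markers of other cells were low but not the same in all groups. Summed monocyte markers were at 39.7 to 69.1 CPM in Normal, 54.1 to 127 in NMO and 49.7 to 89.3 in NMO+CL, and none of the 10 was called in any comparison by edgeR, DESeq2 or limma-voom, with at most 2 under an unadjusted p of 0.05. Their median log2 fold change was 0.75 when NMO and 0.69 when NMO+CL was compared with Normal, and 0.06 for NMO+CL relative to NMO. The members differed in direction: Ccr2, the chemokine receptor of inflammatory monocytes, was at 3.61 to 19.0 CPM in Normal and 1.78 to 8.59 CPM in NMO+CL, whereas Chil3 was at 0 to 11.9 and 8.79 to 44.0 CPM and F13a1 at 0.318 to 3.15 and 4.16 to 9.86 CPM. Summed neutrophil markers were at 599, 100.5 and 129 CPM in Normal replicates 1 to 3, at 169 to 495 CPM in NMO and at 319 to 1439 CPM in NMO+CL. Normal and NMO+CL overlapped through Normal replicate 1 alone, with none of 11 called by edgeR, 4 under an unadjusted p of 0.05 in NMO+CL against Normal and 3 called there by limma-voom, where their median log2 fold change was 1.00. Border macrophage markers summed to 307 to 479 CPM in Normal, 212 to 363 in NMO and 427 to 684 in NMO+CL. Most of this sum was Stab1, which rose in NMO+CL against Normal (edgeR adjusted p = 0.0361; lost without any one of the Normal libraries or without NMO+CL replicate 2), and Cbr2, which was not called, at 124 to 272 CPM in Normal, 0 to 159 CPM in NMO and 185 to 394 CPM in NMO+CL. Mrc1 was at 11.0 to 20.3 CPM in Normal and 7.83 to 18.1 CPM in NMO+CL, and Cd163 was at 0 in all NMO and NMO+CL libraries and at most 1.85 CPM in Normal. Astrocyte and oligodendrocyte markers summed to 200.3 to 227 CPM in Normal, 102 to 136 in NMO and 93.4 to 137 in NMO+CL, mostly Slc1a3, which fell with Slc1a2 in NMO+CL against Normal. The call of Slc1a3 was made in 12 of 17 alternatives and lost without Normal replicates 2 or 3 or NMO+CL replicates 1 or 2. That of Slc1a2, at 0 to 19.1 CPM in Normal, was made in 11 of 16, not by limma-voom (adjusted p = 0.337), and lost without Normal replicates 1 or 3 or NMO+CL replicates 2 or 3. Pdgfra of the same list rose in NMO+CL against NMO (edgeR adjusted p = 0.0207), and was at 4.46 to 8.06 CPM in Normal, 0 to 0.479 CPM in NMO and 3.72 to 14.9 CPM in NMO+CL; limma-voom did not call it (adjusted p = 0.138), and the call was lost without NMO replicates 1 or 2 or NMO+CL replicate 1. Neuron markers, which summed highest in Normal replicate 1, had a median log2 fold change over the 5 tested of −2.32 in NMO against Normal and −1.34 in NMO+CL against Normal. Meg3 of these was lower in NMO against Normal (edgeR adjusted p = 0.0493), at 9.91 to 169 CPM in Normal, 3.82 to 6.87 CPM in NMO and 10.3 to 19.7 CPM in NMO+CL. That call was made in 7 of 16 alternatives and was lost without Normal replicate 1. Lymphocyte markers summed to at most 21.6 CPM, and endothelial and mural markers to 52.7 to 146 CPM, with Kdr called higher in NMO+CL, against Normal in 11 of 17 alternatives and against NMO in 13. The part of these cells in the levels of the 9 factors was not tested.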

How the data were processed

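Sorted microglia were measured by QuantSeq 3′ mRNA sequencing with single reads of 75 bases. The deposited values are read counts per gene, which the authors made from unique and multiple alignments. The submitters' processing notes name mm10, Bowtie2 and bedtools, while the gene annotation, and whether reads were counted by strand, are not given in the sources used here. Without strand, reads of a gene and of an antisense partner cannot be told apart. Groups and replicate numbers came from the sample titles, and the study describes the replicates as independent pools.

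Each file held 23282 entries for 23238 symbols. The 79 entries of the 35 repeated symbols were summed, and each of the 9 factors had 1 entry. The analysis used edgeR 4.0.16 in R 4.3.3. Genes passed filterByExpr (minimum count 10, minimum total 15), library sizes were scaled by TMM, and 1 quasi-likelihood model with 1 coefficient per group was fitted to all 9 libraries, with a common biological coefficient of variation of 0.519. Total counts were 5788234 to 7837219 per library, and libraries of a group differed by more than sampling noise. Alternatives were DESeq2 1.42.0, limma-voom (limma 3.58.1), other scalings, no filter, the compared groups alone, a replicate block and the loss of each library. The call rule of the study, a 1.5-fold change with an unadjusted p under 0.05, was applied as well. Transcript ends were compared with blastn 2.17.0, and start sites are those of RefSeq on GRCm38.p6.

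The named genes are the 9 factors in each comparison, up to 4 called genes of each list with the smallest adjusted p, a few relatives and partners whatever their values (Cbfb, Irf5, Irf7, Cebpb, Mef2d and Smad3), and the 3 nearest genes of each called factor among those with a mean of at least 20 CPM. The factors and the lists were chosen with earlier results of these data known, so the lists are no independent support. A few genes that this rule names are not reported here. The marker genes Tmem119, Ccr2, Chil3, F13a1, Cbr2, Mrc1 and Cd163, and Lysmd4, fall outside the rule and were chosen after their values were seen.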

Additional observations from a re-analysis of the deposited data

How the results depend on the processing

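Under 17 alternatives, the falls of Cebpa and Maf in NMO+CL against Normal were called each time, with log2 fold changes of −1.47 to −1.24 and −1.22 to −0.99. The number of the 9 factors called in NMO against Normal was 1 rather than 0 by DESeq2, with all genes with a count, and under the 1.5-fold rule with an unadjusted p. In NMO+CL against NMO it was 2 rather than 1 by DESeq2 and under the 1.5-fold rule, 0 with only the compared groups fitted, and 0 to 1 without each library in turn. In NMO+CL against Normal it was 6 rather than 5 by DESeq2 and by limma-voom. There it was 4 under the 1.5-fold rule, with library totals alone and with only the compared groups fitted. It was 3 with all genes with a count and 2 to 6 without each library in turn. The log2 fold change of Spi1 reversed without single libraries, ranging from −0.48 to 0.0137 in NMO against Normal, −0.18 to 0.40 in NMO+CL against NMO and −0.38 to 0.11 in NMO+CL against Normal, and that of Runx1 in NMO against Normal ranged from −0.058 to 0.17. The cause was not tested. With library totals alone the median log2 fold change of genes with at least 100 counts was 0.11 in NMO against Normal, where TMM gave 0.01. Same-numbered libraries of different groups did not deviate together (correlations of −0.0148 to 0.0302), so the numbers name the libraries only. With a replicate block the calls among the 9 factors numbered 0, 1 and 5 in the 3 comparisons, as without it. Of 765 counts of called genes in the other lists under alternatives, 623 stayed within 1.5 times and 142 did not. With 3 libraries a group, an exact permutation test of 1 gene cannot go below p = 0.1. The common coefficient of variation of 0.519 is taken over all genes, whereas that of the 9 factors within groups was 4.02% to 33.8%.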
